A study of Mus musculus with 86 samples.

Results

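CTCF peak lists of mouse embryonic stem cells were compared between asynchronous and mitotic cultures. They are 4 of the 86 libraries of the series, chosen by antibody, and each holds the chromatin immunoprecipitation with sequencing (ChIP-seq) peaks of 1 library. All 4 came from cells of strain 129S5/SvEvBrd grown on gelatin in medium with serum and leukemia inhibitory factor, which keeps stem cells self-renewing. The 2 asynchronous libraries came from untreated cultures. The 2 mitotic libraries came from cultures held with 100 ng/ml of nocodazole, a drug that blocks spindle microtubules, for 6 h and then shaken off the dish. The labels give no mitotic index and do not say whether the replicates were separate cultures, so the spread between replicates may be technical.

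CTCF is a zinc finger protein that binds a long, GC-rich motif. In interphase it halts cohesin as cohesin extrudes DNA, which sets the anchors of chromatin loops and the borders of topological domains, and it also insulates promoters from enhancers. Loops and domains are dissolved on mitotic chromosomes, and the extent to which CTCF stays bound there has been reported to differ between cell types.

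Asynchronous replicates 1 and 2 had 68328 and 67995 peaks, and mitotic replicates 1 and 2 had 20142 and 15338. Peaks of the 2 asynchronous libraries that overlapped were merged, and the 57992 merged regions with a peak in each asynchronous library are the regions described here. A mitotic library counted as calling a region where any of its peaks overlapped the region by 1 bp or more. Called in mitotic replicate 1 were 33.0% of the regions, in replicate 2 25.4%, in both 24.5% (14210 regions, termed shared), and in neither 66.0%. Over the 76051 regions of all 4 lists merged, the asynchronous libraries had a peak in 88.1% and 87.9% and the mitotic libraries in 25.7% and 19.5%, so the groups did not overlap (two-sided exact permutation test over libraries, p = 0.333, the smallest that 2 against 2 allows). The lowest background coverage solved among sampled peaks of each list was similar in the 4 libraries, at 3.36 to 3.77 reads per 100 bp. It is a minimum and not a typical value of a library. Each list was called against its own threshold, so a region that was not called can still hold coverage below that threshold.

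The regions are ranked below by strength, the percentile of a region's fold enrichment in each asynchronous list, averaged over both lists. The folds are the authors' values, each relative to its own list, and are given side by side as a description. From the weakest to the strongest decile of the regions, the share called went from 3.05% to 89.4% in mitotic replicate 1 and from 1.07% to 81.3% in replicate 2. Between the fifth and the eighth decile the share went from 13.3% to 63.5% in replicate 1 and from 6.50% to 48.3% in replicate 2. Differences by chromosome, gene position, neighbouring region and motif are therefore given also at equal strength. Except for the motif, these are unweighted means over the deciles, so a decile with few regions counts as much as one with many. The gene lists and named genes were not compared at equal strength.

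Promoter sequences show what the strongest start-site regions look like. They are taken from RefSeq windows on GRCm38.p6, the assembly of mm10, and only bases before the start of transcription are printed, 5′ to 3′ on the strand of the gene. The windows were chosen as those of highest strength whose region was called in both mitotic lists (Comtd1, Adprhl2 and Alg5) or in neither (Gm32968, Zc3h12b and Alcam). The sequence of Zc3h12b is left out because both asynchronous summits lay 165 and 201 bp past its start site. Capitals mark a shortened form of the CTCF core motif, on either strand: CCA, any 2 bases, AG, any 2 bases and GG.
Comtd1, called in both, chr14:21848984-21849083, minus strand: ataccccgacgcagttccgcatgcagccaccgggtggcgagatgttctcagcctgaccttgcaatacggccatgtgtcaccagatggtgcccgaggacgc
Adprhl2, called in both, chr4:126321704-126321803, minus strand: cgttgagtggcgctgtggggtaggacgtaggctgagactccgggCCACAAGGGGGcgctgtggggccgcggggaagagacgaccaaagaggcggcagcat
Alg5, called in both, chr3:54735390-54735489, plus strand: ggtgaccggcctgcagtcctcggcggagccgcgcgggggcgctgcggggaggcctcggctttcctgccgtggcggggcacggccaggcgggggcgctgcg
Gm32968, called in neither, chr8:120327427-120327509, plus strand: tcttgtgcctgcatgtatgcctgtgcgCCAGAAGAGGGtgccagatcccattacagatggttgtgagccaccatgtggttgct
Alcam, called in neither, chr16:52453106-52453205, minus strand: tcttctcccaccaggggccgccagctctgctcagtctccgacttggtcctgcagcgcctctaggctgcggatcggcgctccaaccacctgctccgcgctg

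At Comtd1, a gene for a catechol O-methyltransferase domain protein, the summits of the 4 libraries fell within 10 bp of each other, at offsets of -131 to -121 bp from the start. Its peaks were 1955 and 1231 bp wide in the asynchronous lists and 822 and 705 bp wide in the mitotic lists. At Alg5, which encodes a glucosyltransferase of the glycosylation pathway, the summits lay at -100 to -97 bp, with mitotic widths of 1218 and 761 bp against 1289 and 1434 bp. At Adprhl2, an ADP-ribose hydrolase gene, the asynchronous summits lay 41 and 42 bp from the centre of the marked match and the mitotic summits 12 and 16 bp from it. The promoters called in neither differed in width, with asynchronous peaks of 1398 and 1168 bp at Gm32968 and 733 and 667 bp at Zc3h12b. Those of Gm32968 were thus about as wide as those of Alg5. Alcam, which encodes a cell adhesion protein, had narrower asynchronous peaks of 520 and 487 bp, with folds of 17.9 and 13.9, and no mitotic peak.

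The same sites had narrower peaks in mitosis. Over the 14210 shared regions the median width was 771 and 819 bp in asynchronous replicates 1 and 2, and 521 and 392 bp in mitotic replicates 1 and 2. Both mitotic medians lay below both asynchronous medians, and the mitotic replicates lay further apart than the asynchronous ones. The mean of the medians was 457 ± 91.2 bp (SD, n = 2) in mitosis and 795 ± 33.9 bp (SD, n = 2) in asynchronous cells, a ratio of 0.574 (exact permutation test, two-sided, p = 0.333, the smallest possible). In 78.5% of the shared regions (11158) both mitotic peaks were narrower than both asynchronous peaks, and in 1.03% (146) both were wider.

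**Figure D1:**
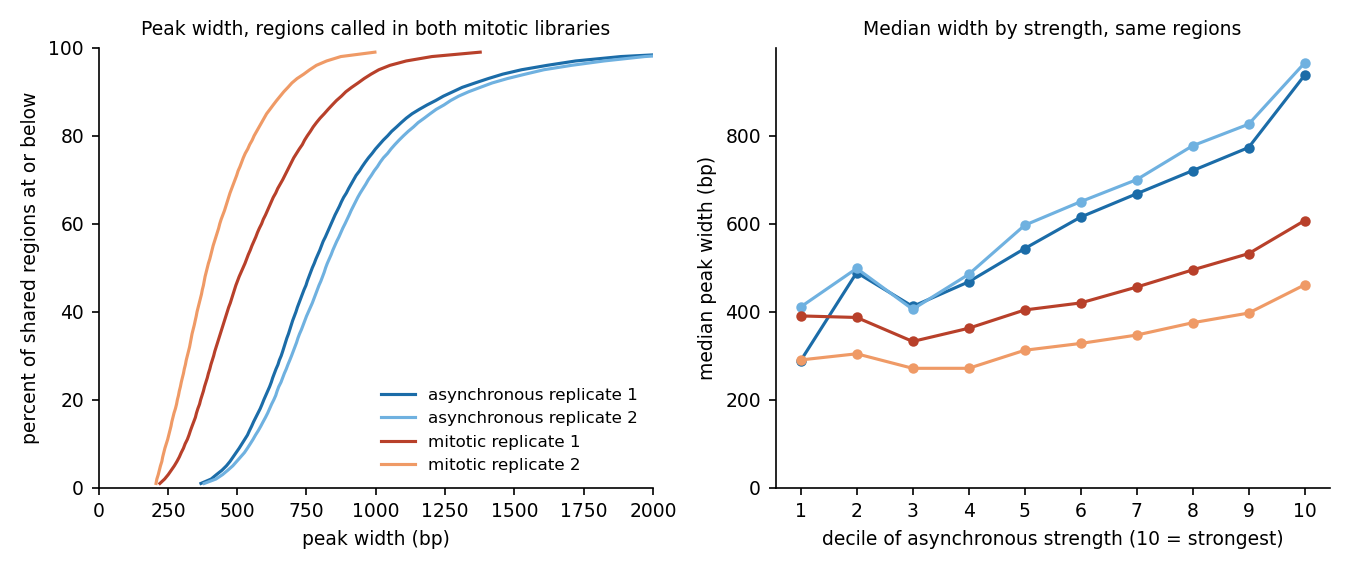
Left, cumulative share of the 14210 shared regions (y axis, percent) by peak width (x axis, bp) in each of the 4 libraries. Right, median width in bp by decile of asynchronous strength in the same regions, with the points as medians. Both mitotic curves lie to the left of both asynchronous curves, with medians of 521 and 392 bp against 771 and 819 bp.

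The narrowing was on both sides of the site. The peaks of mitotic replicate 1 began a median of 111 and 131 bp inside those of asynchronous replicates 1 and 2 on the left, and ended 109 and 131 bp inside them on the right. In replicate 2 these insets were 172 and 193 bp on the left and 170 and 193 bp on the right. A mitotic peak lay wholly inside both asynchronous peaks in 58.6% of the shared regions for replicate 1 and in 81.5% for replicate 2. With the shortest width of each list (194 to 209 bp) taken off, the ratio was 0.415. Over all peaks of each list, which are not the same sites, it was 0.867, with list medians of 461 and 477 bp against 430 and 383 bp.

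From the fifth decile up, the median width was larger in each stronger decile in every library. In the strongest decile the shared regions had median widths of 937 and 965 bp in asynchronous cells and 607 and 461 bp in mitosis, a ratio of 0.562. In the fifth decile they were 544 and 597 bp against 404 and 313 bp, a ratio of 0.629. In the weakest decile, with 38 shared regions, the ratio was 0.973 and the libraries overlapped. Regions called in neither mitotic library were narrower already in asynchronous cells, at 412 and 423 bp, and remained narrower at equal strength. In the eighth decile, asynchronous replicate 1 peaks were 721 bp wide where both mitotic libraries had a call and 643 bp where neither had one. In the regions that mitotic replicate 1 alone called, its peaks were 285 bp wide, near the shortest of its list.

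Among all shared regions only 1 had mitotic peaks of at least 2000 bp in both libraries. It covers the ribosomal DNA repeat unit annotated on chromosome 17 (chr17:39843016-39848815), over AY036118 and Rn18s-rs5, an 18S ribosomal RNA related sequence. Its peaks were 5800, 5786, 5733 and 5723 bp wide in asynchronous replicates 1 and 2 and mitotic replicates 1 and 2. The folds there were among the lowest of all, at 1.70, 1.52, 1.35 and 1.28, and the summits were scattered over it, at 39845913, 39845015, 39844648 and 39844382. The next widest mitotic peaks were at the start of Ap5b1, an adaptor complex subunit (2214 and 1977 bp), 12.2 kb from Rpia, 30.1 kb from Tmem121 and 4.60 kb from Scarb1, the receptor for high-density lipoprotein (2384 and 1731 bp). At Ap5b1 the asynchronous peaks had nearly the same width, 2240 and 2231 bp.

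Summits stayed in place at most sites. The median distance between the summits of a shared region was 15 bp between the asynchronous replicates and 26 bp between the mitotic replicates. The 4 pairs across conditions gave 22, 24, 22 and 24 bp, a mean of 23.0 ± 1.15 bp (SD over 4 pairs, which share libraries). The distance across conditions thus lay above that between asynchronous replicates and below that between mitotic replicates, and it had no direction, with signed medians of 0 to -1 bp. Summits within 50 bp of each other made up 94.2% of the regions between asynchronous replicates, 76.4% between mitotic replicates, and 80.0% to 83.9% across conditions.

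**Figure D2:**
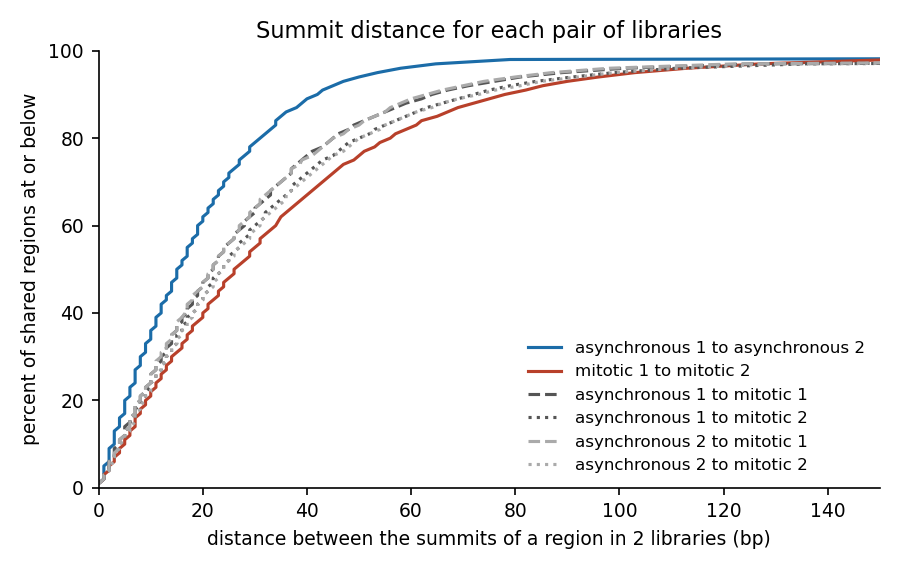
Cumulative share of the 14210 shared regions (y axis, percent) by the distance between the summits of the same region in 2 libraries (x axis, bp), for the 6 pairs of libraries. The pair of asynchronous replicates rises fastest, with a median of 15 bp, the pair of mitotic replicates slowest, with 26 bp, and the 4 pairs across conditions lie between them.

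Summit distances shrank with strength in each pair. From the fifth to the strongest decile the median went from 19 to 14 bp between asynchronous replicates, from 35 to 24 bp between mitotic replicates, and from 25 to 21 bp between replicates 1 of the 2 conditions. In 10306 shared regions (72.5%) the replicate summits lay within 50 bp of each other in each condition. Among those the mean mitotic summit lay a median of 15 bp from the mean asynchronous summit, 644 (6.25%) had moved by more than 50 bp and 98 by more than 200 bp. Most of the 98 large moves, 80, exceeded 500 bp.

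The large moves were in wide regions. The 98 regions had a median width of 1819.5 bp against 903 bp for all shared regions. A region that holds summits over 200 bp apart has to be wider than that, so this contrast follows at least in part from the selection. In 84 of them the mean mitotic summit lay inside the strongest peak of asynchronous replicate 1, and asynchronous replicate 2 was not checked for this. The largest was inside Zfp64, a zinc finger gene, on chromosome 2 (chr2:168902340-168905481). There the strongest summits were at 168905068 and 168905019 in the asynchronous lists and at 168902838 and 168902867 in the mitotic lists, 2191 bp apart on average. The asynchronous folds were 15.2 and 14.8 and the mitotic folds 10.7 and 7.26. In mitosis the region was split into 3 peaks in each library, against 1 and 2 peaks in asynchronous cells.

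Most of the other regions among the 10 largest moves lay inside genes, against 37.2% of all shared regions. So few regions from the end of a ranking do not show a trait of moved summits. Positions in genes were not tallied for moves smaller than these. In Itpr3, an inositol trisphosphate receptor, the summit pairs were 1684.5 bp apart, and in Vgll4, a cofactor of TEAD transcription factors, they were 1676.5 bp apart. In Vgll4 the asynchronous libraries had a single peak of 3188 and 3186 bp, and the mitotic libraries had 2 and 3 peaks of which the strongest were 1024 and 911 bp wide. Gm50595, Npas1 (a neuronal bHLH-PAS factor), Mroh6, Dennd3 and Camta1 (a calmodulin-binding transcription activator) had moves of 1276 to 1652.5 bp inside or at the end of the gene. At Camta1 the strongest mitotic peaks reached into the region from outside, with summits at 151157167 and 151157133 before its first base at 151157629. All 10 named regions had more than 1 peak in at least 1 of the 4 lists. Ptma and Pttg1 (securin, which holds separase until anaphase) were 0.637 and 6.86 kb from regions with moves of 1427.5 and 1280.5 bp. At Pttg1 the strongest summits were at 43411659 and 43411676 in asynchronous cells and at 43412946 and 43412950 in mitosis, while the folds in the 4 lists were 8.67, 9.68, 8.94 and 8.40.

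Mitotic summits lay further apart along the chromosome. The median distance between neighbouring summits was 12.2 and 12.3 kb in the asynchronous lists and 38.8 and 50.3 kb in the mitotic lists. These give 12.2 ± 0.0605 kb (SD, n = 2) against 44.5 ± 8.14 kb (SD, n = 2), a ratio of 3.64 with no overlap (exact permutation test, two-sided, p = 0.333, the smallest possible). A shorter list has wider spacing by itself. The same number of asynchronous peaks with the highest fold had medians of 39.1 and 37.7 kb at the length of mitotic replicate 1, and 49.8 and 46.9 kb at the length of replicate 2, and against these the ratio was 1.03 (exact permutation test, p = 1.00). The median spacing was thus near that of equally long lists of the strongest asynchronous sites.

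The ends of the distribution differed from those equally long lists. Distances under 2 kb made up 5.99% and 5.19% of the mitotic lists, against 3.15% and 2.99%, and 2.44% and 2.51%, of the asynchronous lists of the same lengths. Of the 1205 such pairs in mitotic replicate 1, 560 (46.5%) lay under a single peak of an asynchronous list, and of the 795 in replicate 2, 437 (55.0%) did. Distances over 100 kb made up 27.8% and 33.5% of the mitotic lists, against 26.3% and 25.7%, and 32.1% and 31.5%. The longest stretch of the X chromosome without a peak was 16.4 Mb in mitotic replicate 1 and 20.8 Mb in replicate 2, from positions 112903796 and 112903811 on, against 5.73 and 11.5 Mb in asynchronous replicates 1 and 2.

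**Figure D3:**
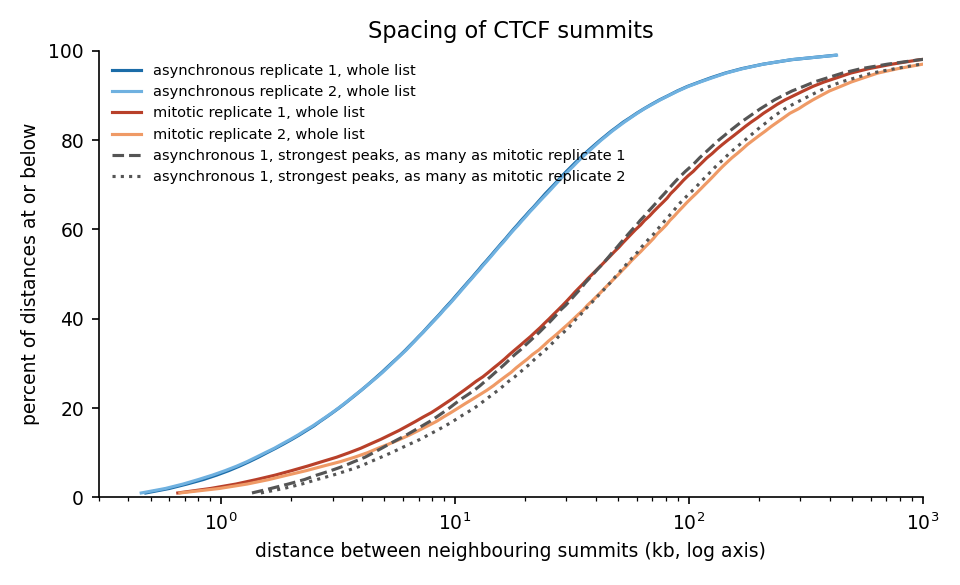
Cumulative share (y axis, percent) of the distances between neighbouring summits (x axis, kb, log axis) in the 4 whole lists (solid lines) and in the strongest peaks of asynchronous replicate 1 at the length of each mitotic list (broken lines). The mitotic lines lie to the right of the whole asynchronous lists, with medians of 38.8 and 50.3 kb against 12.2 and 12.3 kb, and cross the lines of equal length.

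A region was called slightly more often where its nearest neighbour was called. Mitotic replicate 1 had a peak at 36.8% of the regions whose nearest neighbour was called in it and at 31.1% of the others. In replicate 2 the shares were 29.8% and 23.9%. The difference of 5.77 ± 0.154 percentage points (SD, n = 2) fell to 2.04 ± 0.0522 within deciles of strength. Isolated regions were called least: over 100 kb from the nearest region, 25.4% and 17.7% were called in the 2 mitotic libraries, against 35.2% and 27.7% under 2 kb, and the strength percentile fell from 51.9 to 40.6 in median.

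Regions with the same calls were followed along the chromosome as stretches of consecutive regions. The 14210 shared regions formed 10121 stretches with a median length of 1, of which 7274 were single regions and the longest held 10. The 38291 regions called in neither formed 12335 stretches with a median length of 2, of which 4238 were single regions. The longer stretches go with the larger share of regions called in neither, 66.0% against 24.5%. A stretch of 10 covered Slc7a1, a transporter of cationic amino acids, over 82.4 kb of chromosome 5 (chr5:148325086-148407495), with folds of 6.62 to 12.7 and 5.89 to 15.3 in asynchronous cells and 4.09 to 11.1 and 3.19 to 8.39 in mitosis. Its median widths were 802 and 875 bp in asynchronous cells and 557 and 442 bp in mitosis. A second stretch of 10 filled 123 kb without a protein-coding gene on chromosome 4 (chr4:134962569-135085521), between Syf2, a splicing factor gene, and Runx3, a gene of a Runt domain transcription factor. Its asynchronous folds were 8.04 to 20.2 and 10.0 to 19.3, and all its members were above the 80.3rd strength percentile. A stretch of 9 lay over 175 kb of Tmem132c, a transmembrane protein gene.

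The longest stretches with no mitotic call were on the X chromosome. From Rlim, the gene of a ubiquitin ligase that acts in X inactivation, towards 2610002M06Rik, 46 consecutive regions over 3.83 Mb (chrX:103937359-107768240) had a call in neither mitotic library. This stretch spans 28 protein-coding genes, among them Atrx, a chromatin remodeller, and Pgk1, a glycolytic enzyme. Asynchronous folds there ran from 2.46 to 14.1 and from 2.54 to 11.5, with median widths of 348 and 367 bp. A second X stretch of 37 regions ran over 609 kb from Gpkow to Slc38a5, past Gata1, Hdac6 and Suv39h1. On chromosome 7, 31 regions over 498 kb from Clpb to Pgap2 were without a call, past Numa1, a spindle pole protein, and Nup98, a nucleoporin. The strength percentiles inside these 3 stretches reached 85.4, 95.5 and 92.4, so some strong sites were among them.

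The X chromosome kept the smallest share of its regions. Of its 1294 regions, 19.4% were called in mitotic replicate 1 and 9.58% in replicate 2, against 33.3% and 25.8% on the autosomes. Among autosomes the shares in replicate 1 went from 29.0% on chromosome 16 to 36.7% on chromosome 5, and in replicate 2 from 21.8% on chromosome 16 to 29.3% on chromosome 11. The X lay below each autosome in both libraries, and its difference from all autosomal regions was -15.1 ± 1.61 percentage points (SD, n = 2). X peaks were also narrow: the shared X regions had median widths of 474 and 475 bp in asynchronous cells and 396 and 300 bp in mitosis. The median summit spacing on the X was 28.0 and 32.3 kb in the asynchronous lists and 201 and 445 kb in the mitotic lists.

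**Figure D4:**
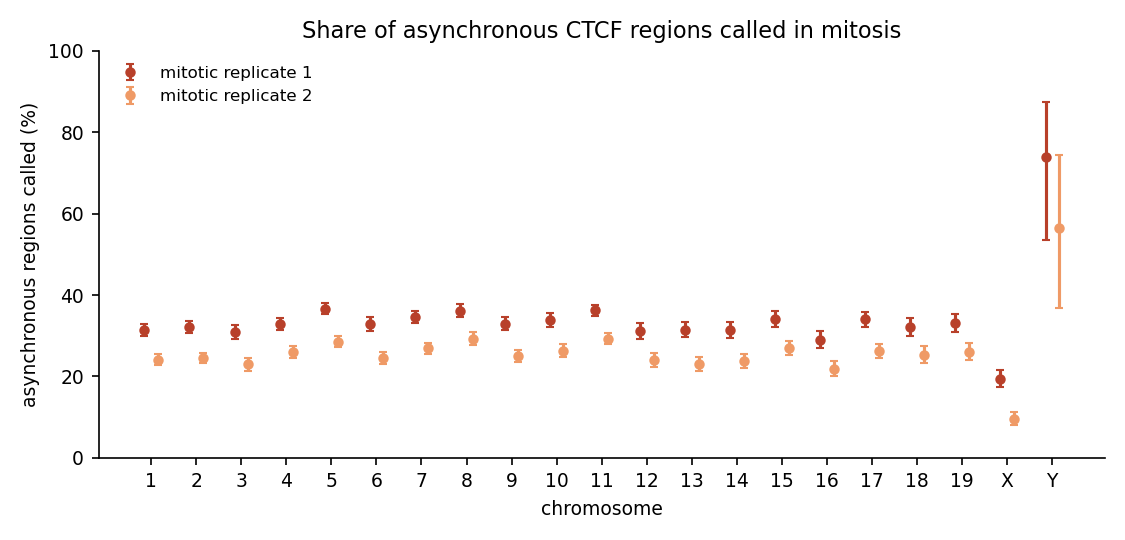
Share of the asynchronous CTCF regions of each chromosome (x axis) that was called in mitosis (y axis, percent) in mitotic replicates 1 and 2, with 95% Wilson intervals that cover counting error only. The X, at 19.4% and 9.58%, lies below all autosomes in both libraries, and the Y, with 23 regions, lies above them with wide intervals.

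X regions were weaker than autosomal ones in asynchronous cells, with a median strength percentile of 41.8 against 50.9. Within deciles of fold, the X minus autosome difference was -6.22 and -11.5 points in mitotic replicates 1 and 2. Within deciles of −log10 p, which depends on coverage as well as on fold, it was 0.443 points in replicate 1 and -6.90 points in replicate 2. The 2 libraries then differed in direction. Each decile counts equally in these means, and the X had 230, 223 and 187 regions in deciles 4 to 6 of −log10 p. In those deciles a larger share of X than of autosomal regions was called in both libraries. In decile 5 it was 24.2% against 11.9% and 10.3% against 5.26%. In deciles 7 to 10, with 19 to 81 X regions each, the X share was lower in replicate 2, and in replicate 1 except in decile 9. The asynchronous median −log10 p was 21.7 and 19.5 on the X against 33.3 and 32.0 on the autosomes, while the median folds were 5.86 and 5.29 against 6.52 and 6.31. In the strongest decile of fold, 80.0% and 52.0% of 50 X regions were called, against 89.5% and 81.6% of autosomal regions.

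The Y chromosome had few regions, most of them in its last part, and a higher share of them was called. Of its 23 regions, 17 (73.9%, Wilson interval 53.5% to 87.5%) were called in mitotic replicate 1 and 13 (56.5%, 36.8% to 74.4%) in replicate 2. Of the 23, 20 lay in the last part of the chromosome, from 90.7 to 90.8 Mb, around Gm52481, Gm33272 and the pseudogene Mid1-ps1, and all 13 called in both libraries were there. The Y shares thus describe mainly that part and not the whole chromosome. The strongest, in Mid1-ps1, had folds of 19.4 and 17.7 in asynchronous cells and 11.7 and 8.74 in mitosis, with all 4 summits within 20 bp. A region 24.3 kb from Kdm5d and one inside Uty, Y-linked histone demethylase genes, had folds of 3.61 to 4.93 in asynchronous cells and no mitotic peak.

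Regions were divided by their place in genes: 5359 within 1 kb of a listed start of a protein-coding gene, 3795 within 1 kb of another gene boundary, 24580 inside genes and 24258 outside. Called in mitotic replicate 1 were 35.2% at starts, 39.6% at other ends, 29.3% inside and 35.3% outside. In replicate 2 the shares were 25.5%, 30.6%, 22.4% and 27.8%. Regions inside genes had the lowest share in both libraries, and those at other gene ends the highest. With all gene boundaries in one class and internal start sites counted as inside, the inside minus outside difference was -5.61 ± 0.377 points (SD, n = 2), -3.03 ± 0.0648 within deciles of fold and -3.28 ± 0.115 within deciles of −log10 p. The direction held in both libraries under both rankings.

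Start sites and other ends had no such steady difference. Other ends minus outside regions gave 4.32 and 2.86 points in the 2 mitotic libraries, but 0.819 and -1.08 within deciles of fold, and -2.27 and -4.02 within deciles of −log10 p. Start sites minus outside regions gave -0.0135 and -2.31 points, 5.79 and 1.13 within deciles of fold, and 0.420 and -4.42 within deciles of −log10 p. Over all start-site regions the median strength percentile was 35.8, the lowest of the 4 classes, and the median region width was 694 bp, against 753 bp at other ends, 587 bp inside and 597 bp outside genes. The shared start-site regions had asynchronous peaks of 943 and 974 bp. Their mitotic peaks were 584 and 433 bp wide, a ratio of 0.531, against 0.594 outside genes. Summit distances were alike in the 4 classes, at 20 to 24 bp for all pairs across conditions.

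Of the 21887 protein-coding genes in the annotation, 15484 were the nearest gene within 50 kb of at least 1 region. A region called in both mitotic libraries was found at 7641 of them (49.3%), none was called in either library at 5964 (38.5%), and 1879 had calls in 1 library only or at different regions. Among the 1149 genes with 8 or more regions, 43 had no region called in either mitotic library. The genes named next are those with the highest share called in both, and those with the most regions and none called, so their shares are descriptions of the ends of a ranking.

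The highest share was at Slc7a1, with 10 of 12 regions called in both libraries. Next were Dnajc11 (a DnaJ co-chaperone of mitochondria) with 7 of 9, Eml1 (a microtubule-associated protein) with 6 of 8, Zdhhc14 (a palmitoyltransferase) with 6 of 8, and Tmem132c with 18 of 25. Gng7, a G protein gamma subunit, had 7 of 10, and Actn1 (alpha-actinin), Myh3 (the embryonic myosin heavy chain), Ptprm (a receptor tyrosine phosphatase) and Wnt5b (a Wnt ligand) had 6 of 9 each. Their median strength percentiles ran from 62.7 to 86.9, above the median of all regions, 50.7. At Dnajc11 the folds ran from 2.94 to 17.4 and from 3.37 to 22.6 in the asynchronous lists and from 4.44 to 17.4 and from 2.55 to 14.8 in the mitotic lists.

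At the other end, Btrc, the F-box protein that targets beta-catenin for degradation, had 17 regions and no mitotic call. Its folds ran from 3.12 to 12.9 in asynchronous replicate 1 and from 3.01 to 10.8 in replicate 2. Tnrc6c, a microRNA effector, had 14 regions, and Pld1 (phospholipase D) and Rere (a transcriptional corepressor) had 13 each. Grhl2 (an epithelial transcription factor), Phf20, Spred2 (an inhibitor of Ras-ERK signalling) and 4930402H24Rik had 11 each, and Ext1, a heparan sulfate polymerase, had 9. Their median strength percentiles ran from 22.5 to 45.9, all below the median of all regions. The 2 ends thus did not overlap in median strength.

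**Figure D5:**
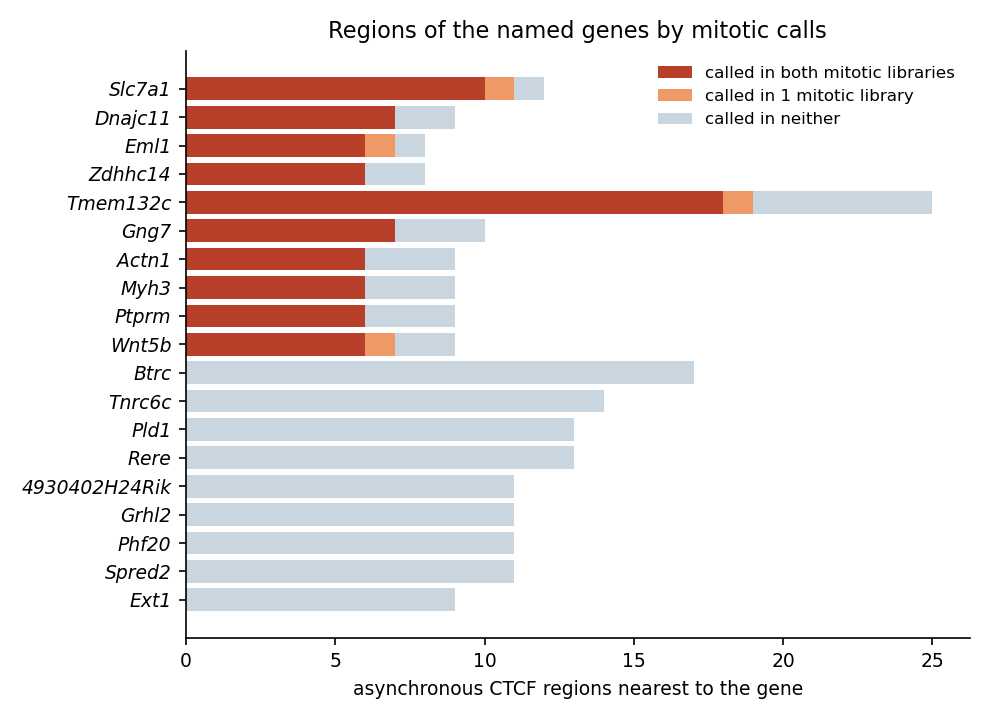
Number of asynchronous CTCF regions nearest to each named gene (x axis), divided into those called in both mitotic libraries, in 1 and in neither. The upper 10 genes have the highest share called in both, from 10 of 12 at Slc7a1 to 6 of 9, and the lower 9 have 9 to 17 regions and no call.

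Long genes held many regions with mixed calls. The most, 79 to 83, were inside 3 overlapping gene models over the clustered protocadherin genes, of which 19 to 21 were called in both libraries. Fry, a gene for a furry homolog protein that acts in cell shape and mitosis, held 45 regions inside 379 kb, of which 19 were called in both libraries. Camta1 held 44 with 22 called in both, Gse1 41 with 11, Cdh13 (T-cadherin) 35 with 13, Mtus2 35 with 14, Dnah8, an axonemal dynein, 32 with 19, and Nav2 30 with 9. Dnah8 was the densest of these with 12.9 regions per 100 kb and had the highest share, 59.4%, and Gse1, at a similar density of 11.6, had 26.8%.

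The gene lists were read beside the 24.5% of all regions called in both libraries. Of 43 regions at Hox genes 37.2% were called in both (Wilson interval 24.4% to 52.1%), and of 170 at ribosomal protein genes 32.9% (26.3% to 40.3%), including 7 of 12 near Rpl38, a ribosomal protein gene. Clustered protocadherin genes, whose promoter choice involves CTCF, had 29.3% of 82 regions called in both (20.5% to 39.9%), with 48.8% in mitotic replicate 1 and 35.4% in replicate 2. Their median strength percentile was 70.7, and those of the Hox and ribosomal lists were 67.0 and 57.6. Keratin genes had 29.5% of 61 regions called in both (19.6% to 41.9%) at a median percentile of 64.3. The Hox, protocadherin and keratin intervals include the overall 24.5%, and the ribosomal interval lies above it.

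The other lists had a lower share and a lower strength than all regions, but the intervals of 5 of them include the overall share. Zinc finger genes had 18.7% of 812 regions called in both (16.2% to 21.5%) at a median percentile of 42.0. Olfactory receptor genes had 19.5% of 215 regions (14.8% to 25.3%), vomeronasal receptors 19.3% of 57 (11.1% to 31.3%) and immunoglobulin V genes 15 of 88 (10.6% to 26.2%), at percentiles of 35.7 to 43.5. These 3 families of tandem genes also had few regions per gene, 0.161 to 0.391, against 2.30 over all genes. Genes of cohesin, condensin and CTCF had 19.7% of 61 regions called in both (11.6% to 31.3%), and mitotic regulators 15.8% of 38 (7.44% to 30.4%), with 3 of 6 at Cdk1, the kinase that drives entry into mitosis, and 0 of 4 at Top2a, which decatenates sister chromosomes. The regions of Ctcfl, the germline paralog of Ctcf, were called in both at 3 of 4.

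Pluripotency genes carried many regions, 107 at 20 genes, of which 15.9% (10.2% to 24.0%) were called in both libraries. Sox2 and Nanog, core transcription factors of the stem cell state, had 3 of 9 and 2 of 9 regions called in both. At Pou5f1, which encodes OCT4, none of 7 regions was called in either mitotic library, although its asynchronous folds reached 15.6 and 12.7. None of the 8 regions at Sall4 was called, where the highest folds were 6.85 and 7.92. Esrrb and Tbx3 had 3 of 12 regions each called in both.

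The core motif was searched in 32817 promoter windows of 300 bp, from 250 before to 50 after a start, on both strands. The full form reads CCA, any 2 bases, AG, any 2 bases and GGC, and the shortened form leaves off the last C. The full form was in 2.43% of all windows and in 1.57% of windows without a region. Windows with a region called in both mitotic libraries held it in 12.6% (190 of 1511), and those called in neither in 4.57% (124 of 2711). Windows called in mitotic replicate 1 alone held it in 6.88% of 596, and those called in replicate 2 alone in 2.38% of 84. With the shortened form, which was in 7.03% of all windows, the shares were 18.3% for both and 10.7% for neither. A match to these letters is a description of the sequence and not a binding site, and a window without a match can hold other forms of the motif.

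The difference was 6.46 percentage points between windows called and not called in mitotic replicate 1 and 7.05 in replicate 2, a mean of 6.75 ± 0.419 (SD, n = 2). In windows that hold both asynchronous summits the share was 22.9% of 681 called in both and 10.1% of 814 called in neither. By decile of strength, the shares in these last windows were 31.3% of 48 called in both against 14.5% of 55 called in neither in the seventh decile, 24.4% of 86 against 13.5% of 37 in the eighth and 28.0% of 143 against 24.0% of 25 in the ninth. In the strongest decile they were 21.4% of 370 against 12.5% of 16. The windows called in both had the higher share in each of these 4 deciles, with few windows called in neither. In the weaker deciles the direction was the reverse, with only 2 to 12 windows called in both per decile. The shares were 0% of 12 against 15.8% of 57 in decile 6 and 11.1% of 9 against 18.2% of 88 in decile 5. In deciles 1 to 4 they were 0% against 5.53% to 8.82%. So few windows called in both cannot settle the direction there.

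Where a single match lay within 150 bp of the asynchronous summits, in 139 windows called in both, the median distance from summit to match was 14.5 and 15.5 bp in asynchronous cells and 20.5 and 23.5 bp in mitosis. Both mitotic values were above both asynchronous values. These windows were chosen on the asynchronous summits. Over all 167 windows with 1 match the order was the same, with 17.5 and 19.5 bp against 24.5 and 27.5 bp. Summits within 50 bp of the match made up 89.9% and 89.2% in asynchronous cells and 84.2% and 80.6% in mitosis.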

How the data were processed

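CTCF ChIP-seq was analysed in 2 asynchronous and 2 mitotic libraries, with groups taken from titles and treatment labels. The submitters' processing notes name MACS2 2.1.1.20160309, BWA 0.7.17, SAMtools, CASAVA 1.4 and the build mm10, and their roles, the options and the controls were not given in the sources used here. Each deposited narrowPeak list holds the peaks of 1 library. For each summit the authors deposited a fold enrichment, which is a ratio of coverage to local background, a −log10 p-value, a −log10 q-value and a score, which was not used. The smallest −log10 q of each list, 1.31 to 1.39, puts the call threshold near a q-value of 0.05. Fold and −log10 p served to order, filter and describe the peaks of the same list and were not compared between lists. Background coverage was solved from fold and −log10 p under the Poisson model of MACS2, within 0.005 on the −log10 p scale for 100% of about 2000 peaks per list. The lowest value among these peaks was divided by the shortest peak width of the list.

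All peaks lay on the 21 standard chromosomes. Within a region the peak with the highest fold gave width and summit. Spacing is between neighbouring summits of a list. Genes and promoter sequences came from RefSeq tables on GRCm38.p6, and nearest genes were protein-coding or immunoglobulin V genes within 50 kb of a region, with ties given to the smaller gene. Library medians entered an exact permutation test, two-sided, 2 libraries against 2, and other values are given per library with Wilson intervals (95%) or the SD over 2 libraries. These cover counting error and the spread between libraries only. Python 3.11.15, numpy 2.4.6, pandas 2.3.3, scipy 1.17.1 and statsmodels 0.14.6 were used, and the code was tested on simulated lists and against bedtools.

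The comparison, the gene lists and the rules for named items were chosen with earlier results of these data known. Named were the 3 longest stretches with calls in both or in neither mitotic library (shorter span first among equals), the 10 largest summit moves, the 5 widest mitotic peaks, the 10 genes with at least 8 regions and the highest share called, the 10 with the most regions and none called (1 of which is not reported here), the 10 genes with the most regions inside (the first 3, overlapping models, as a group), and the 3 promoters with the strongest regions of each kind. Promoters on chromosome 18 were not considered for the last of these. Genes inside stretches, single members of the lists and the Y chromosome genes were picked with their values in view.

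Tried as alternatives were a −log10 q or a fold of at least 5, leaving out each library, a minimum overlap of 50% of the shorter interval, a mitotic summit no further than 100 bp from an asynchronous one, regions of 1 or both asynchronous lists, libraries paired by replicate number, other width, summit and spacing measures, a gene end window of 2.5 kb, gene distances of 10 and 100 kb, and deciles of fold. Deciles of −log10 p, the shortened motif and windows with both summits were chosen after the data were seen.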

Additional observations from a re-analysis of the deposited data

How the results depend on the processing

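All 80 alternative values kept the direction of the reported one, but this was fixed in advance for the share called, the summit distance and the gene count. The other differences were compared as means over the mitotic libraries used. With 2 libraries against 2 no p could pass the threshold, so the tests say nothing about stability: the spacing ratio of 3.64 was 1.03 against equally long asynchronous lists, and the width ratio of 0.574 was 0.867 over all peaks, 0.415 with the shortest width taken off and 0.716 where folds under 5 were left out. With a fold of at least 5, the summit distance was 19.5 bp, the inside minus outside difference -4.28 points, the neighbour difference 4.81 points, and the genes with a shared region numbered 4035 against 7641. With a −log10 q of at least 5 the neighbour difference was 6.34 points. Regions of either asynchronous library gave -10.9 points for the X against the autosomes and -5.14 points for inside against outside genes. Within deciles of fold these were -8.85 and -3.03 points with 2.04 for neighbours, and within deciles of −log10 p -3.23, -3.28 and 1.94 points. With each decile counted equally, the X value of -3.23 is a mean of 0.443 in mitotic replicate 1 and -6.90 in replicate 2. Replicate 1 alone thus changed direction under this weighting. Peaks of at most 500 bp gave a summit distance of 25.3 bp. The motif difference was 6.33 points with the shortened motif and 11.2 points in windows with both asynchronous summits. The cause of these changes was not tested.

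Leaving out each library in turn gave 25.1% to 33.0% of regions called, width ratios of 0.487 to 0.591, summit distances of 22.5 to 24.0 bp, spacing ratios of 3.17 to 4.11, X differences of -16.2 to -12.0 points, inside differences of -5.88 to -5.24 points, neighbour differences of 4.43 to 5.88 points and 7638 to 9351 genes. Without a mitotic replicate the shares and their differences rest on 1 library and have no SD. The replicate block, mitotic replicate n against asynchronous replicate n, gave 25.2% of regions called, a width ratio of 0.534 and a summit distance of 24.0 bp, with an exact p of 0.500, the smallest for 2 pairs. In width, same-numbered libraries did not deviate together from region to region (r = 0.00763 between log2 width ratios of the replicates, across 14210 regions, which are not independent). A shift common to all regions of a library cannot show in this r, and only width was examined. Background coverage was solved only for the whole lists, and its part in the calls of weak regions was not tested.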
